A study of Mus musculus with 120 samples.

Results

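The extra-embryonic part of the mouse embryo at 7.5 days post coitum, labelled ExE, was compared with the embryonic regions of the same stage, labelled A, AM and P. The labels do not spell out these region names. Gene counts of 8 polyA RNA libraries out of the 120 samples of the series entered the comparison, 2 from ExE and 2 from each embryonic region, all from ICR embryos collected from pregnant mice without any stated genetic change or treatment. The labels do not tell if a replicate is 1 embryo or a pool. The p-values cover the spread between libraries alone, estimated over all 18 embryo RNA libraries. A gene was a member when at least 10 reads were counted in at least 2 of the 8 libraries. Of 23154 genes, 13816 met this rule. Their second-highest count marks the edge: it was 10 in 179 genes just inside and 9 in 242 genes just outside. For the time course, 4 libraries of E6.5 (ExE and Epi) and 6 of E7.0 (ExE, A and P) from the same strain were used with the same genes.

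In the gastrulating mouse embryo the epiblast of the embryonic part gives rise to the germ layers, while the extra-embryonic part builds the placenta and the yolk sac. Its trophoblast-derived ectoderm secretes BMP ligands that act on the epiblast, its mesoderm forms the blood islands, and the visceral endoderm around it takes up maternal proteins by endocytosis and digests them. The anterior visceral endoderm, a signalling tissue of the embryonic part, secretes antagonists of Wnt and Nodal.

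Total counts in the 8 libraries ranged from 9366714 to 16297084 reads. The share of reads on the ribosomal RNA gene Rn45s ranged from 0.151% in ExE replicate 2 to 3.69% in AM replicate 2. In every group replicate 1 held reads of Y-linked genes (1726 to 4284) and replicate 2 held none, so the replicate number and the sex of the material cannot be told apart. The ExE libraries also differed from each other. The genes listed for the ectoplacental cone, the outer trophoblast that invades the uterus, summed to 183 CPM in replicate 1 and 532 CPM in replicate 2, while the Hox genes summed to 70.04 and 33.3 CPM. The unit CPM is counts scaled to a common library total, with totals corrected by the trimmed mean of M values (TMM). Genes of the maternal decidua and of immune cells summed to 9.82 and 3.33 CPM in ExE against 7.59 to 11.6 CPM in the embryonic libraries, and none of the 6 of 13 genes that could be tested passed the test.

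ExE differed from the mean of the embryonic regions in 3113 of the 13816 genes (22.5%). Of these, 1949 genes (14.1% of those tested) were higher in ExE and 1164 (8.43%) were lower, in edgeR's quasi-likelihood test with Benjamini-Hochberg adjusted p under 0.05. In 1630 of the higher and 1099 of the lower genes, both ExE libraries lay outside the range of all 6 embryonic libraries. Among all tested genes, called or not, that separation occurred upward in 16.9% and downward in 18.1%. Scaling by total counts alone moved the median log2 difference of all genes from -0.03 to -0.34, and only 43.7% of its calls were higher, against 62.6% with TMM. It gave 981 higher and 1263 lower genes, so directions here are relative to the TMM scale. Leaving out ExE replicate 2 reduced the calls to 549 higher and 151 lower, and leaving out ExE replicate 1 reduced them to 1514 and 667. The remaining ExE library was then assumed to vary like the other groups. Of the 3113 genes, 70 and 67 fell below the count minimum in these fits and could not be tested. Because the libraries are bulk tissue, fewer cells of a type and less RNA per cell cannot be told apart in any result.

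**Figure D1:**
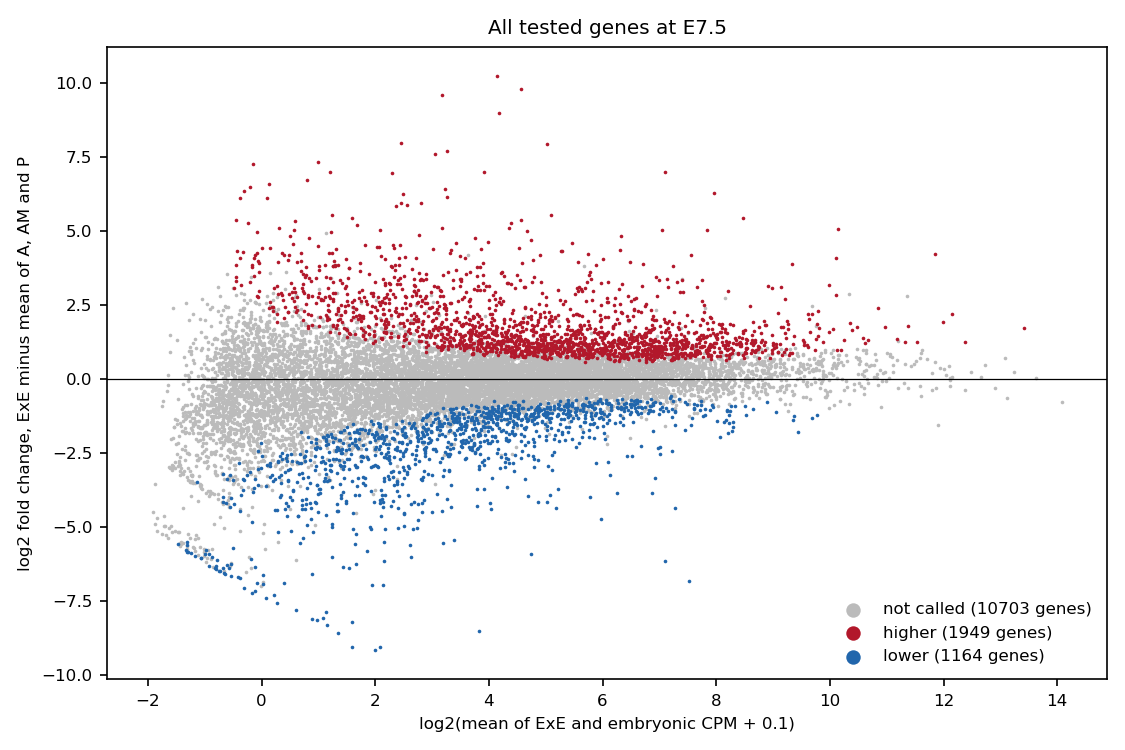
Each point is 1 of the 13816 tested genes at E7.5, with the log2 of the mean of ExE and embryonic CPM (plus 0.1) on the x axis and the fitted log2 fold change of ExE over the mean of A, AM and P on the y axis. The 1949 red genes were called higher and the 1164 blue genes lower; calls cover the whole range of levels, and the diagonal band at the lower left holds genes with no or hardly any ExE reads.

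The 32 gene lists used to describe the tissue hold 472 genes, of which 385 met the count minimum. A gene read in ExE alone meets the minimum through ExE alone, so counts over tested members are a description and not evidence for a list. Each list count below is to be read beside the 14.1% higher and 8.43% lower of all tested genes. The lists with the highest median log2 differences were the Rhox homeobox genes (5.38), primitive blood (3.54), and the extra-embryonic ectoderm and chorion (2.86), against -0.03 over all tested genes. At the other end stood definitive endoderm and axial mesoderm (-3.13), anterior visceral endoderm (-2.13) and epiblast (-1.92).

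**Figure D2:**
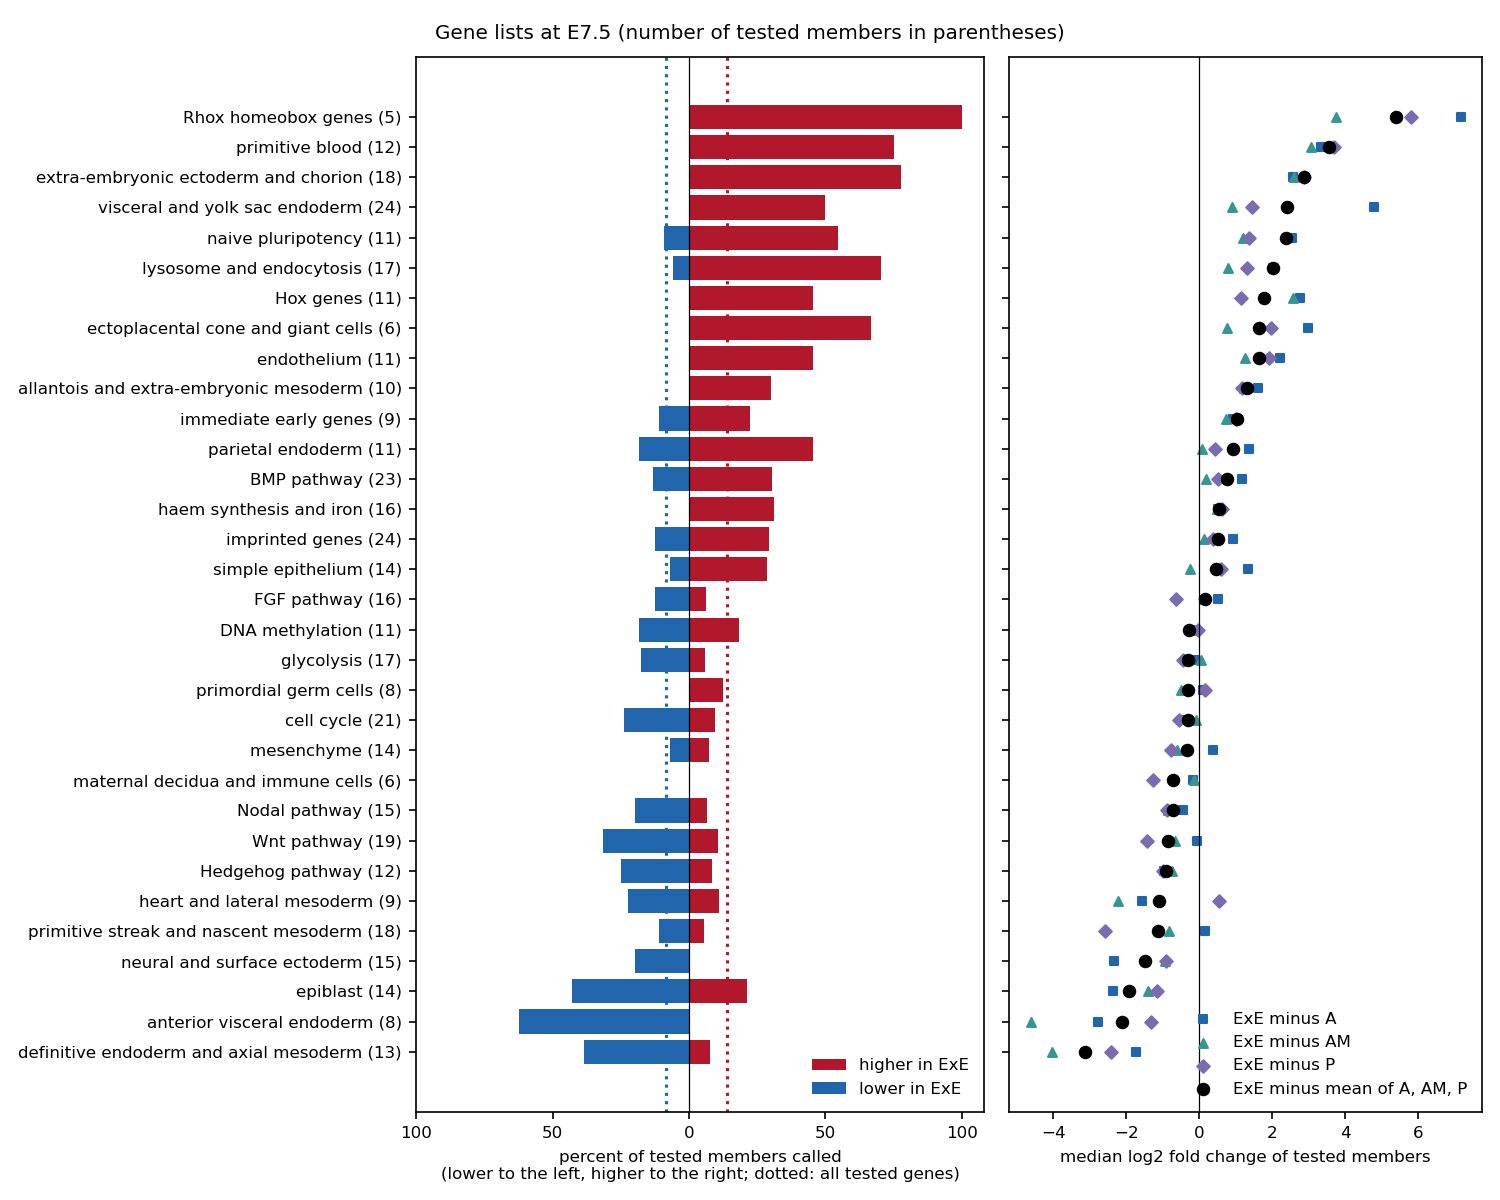
Left, the percentage of tested members of each list that were called higher (right, red) or lower (left, blue) in ExE, with dotted lines at the 14.1% and 8.43% of all tested genes. Right, the median log2 fold change of the tested members against the mean of the embryonic regions (black) and against each region; the lists are ordered from 5.38 for the Rhox genes at the top to -3.13 for definitive endoderm and axial mesoderm at the bottom.

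Transcription factors of trophoblast stem cells were higher in ExE. Elf5, a transcription factor that maintains trophoblast stem cells (chr2:103412098-103450989, GRCm38.p6), was at 19.3 and 16.5 CPM in ExE, while all 6 embryonic libraries together held 2 reads of it, both in P. Esrrb, an orphan nuclear receptor of the same cells, was at 12.8 and 23.7 CPM in ExE and at 0 to 0.55 CPM in the embryonic libraries (median 0.384). Its log2 difference was 6.41 ± 0.46 (SE; edgeR adjusted p = 2.2e-07). Tfap2c, an AP-2 transcription factor required in trophoblast, had 27 and 31.8 CPM in ExE against a median of 1.95 and a highest value of 4.03 CPM, a log2 difference of 4.61 ± 0.44 (edgeR adjusted p = 4.89e-06). None of these genes overlapped between ExE and the embryonic libraries. Eomes, a T-box factor used in trophoblast and in the primitive streak, was at 30.7 and 43.3 CPM against 3.5 to 16.4 CPM. Its call (log2 difference 1.91 ± 0.44, edgeR adjusted p = 0.00617) was lost without ExE replicate 2 (0.12).

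Other classical trophoblast factors did not separate the tissues. Cdx2, which specifies trophectoderm and later patterns the posterior body, was at 9.74 and 3.42 CPM in ExE, at 0.7 and 7.48 in A, at 0.816 and 4.86 in AM, and at 14.6 and 29.0 in P, with a log2 difference of 0.07 (edgeR adjusted p = 0.96). Both ExE libraries lay below the P libraries, and replicate 2 lay within the range of A and AM. Gata3 was at 9.51 and 16.1 CPM in ExE and between 2.15 and 35.2 CPM in the embryonic libraries, and it did not pass either (edgeR adjusted p = 0.89).

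Secreted factors of the extra-embryonic ectoderm were higher as well. Wnt7b, a Wnt ligand needed for fusion of the chorion with the allantois, was at 14.6 and 18 CPM in ExE and at most 0.35 CPM elsewhere, with no reads in replicate 2 of any embryonic region. The ratio of mean CPM was 194. Bmp8b, a BMP ligand involved in germ cell induction, was at 11.7 and 25.8 CPM against at most 0.429 CPM, with no reads in AM, and its ratio of mean CPM was 123. Bmp4, the main BMP ligand of this tissue, was at 48.3 and 65.1 CPM against 8.5 to 25.6 CPM (log2 difference 2.04 ± 0.51, edgeR adjusted p = 0.0106), a call that was lost without ExE replicate 2 (adjusted p = 0.14). Pcsk6, a protease that activates TGF-beta family precursors, was at 7.53 and 9.61 CPM against 0.476 to 3.66 CPM (2.20 ± 0.54, edgeR adjusted p = 0.0084; 0.11 without ExE replicate 2).

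Of the 18 genes listed for extra-embryonic ectoderm and chorion, 14 were higher and none lower. The number was 7 without ExE replicate 2 and 11 without ExE replicate 1, where 3 of the 14 (Elf5, Wnt7b and Bmp8b) could not be tested. Their summed level was 605 and 824 CPM in ExE and 122 to 171 CPM in the embryonic libraries. Tex19.1, a germline and placental gene, was at 70.1 and 73.2 CPM against 0.951 to 12.3 CPM (log2 difference 4.31 ± 0.33, edgeR adjusted p = 4.56e-07). Ddah1, an enzyme that degrades methylated arginine, was at 227 and 349 CPM against 21.6 to 73.3 CPM (2.94 ± 0.24, edgeR adjusted p = 9.23e-07). Both kept their calls with each of the 8 libraries left out.

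The promoters of these genes were searched for the palindrome GCCNNNGGC, a consensus of the AP-2 factors to which Tfap2c belongs. In the 250 bases before the RefSeq start it was present in 4 of 16 promoters of list members (25%), in 2 of the 11 promoters of the called members (18.2%), and in 20.2% of the promoters of all tested genes. The share in the called members was thus no higher than the background. The matching promoters among called genes are shown with the motif in capitals, 5′ to 3′ on the gene's strand. They belong to Pcsk6 (chr7:65861886-65862135, GRCm38.p6, plus strand) and to Sox21 (chr14:118237031-118237280, minus strand), which was chosen for display after its values were seen.
Pcsk6: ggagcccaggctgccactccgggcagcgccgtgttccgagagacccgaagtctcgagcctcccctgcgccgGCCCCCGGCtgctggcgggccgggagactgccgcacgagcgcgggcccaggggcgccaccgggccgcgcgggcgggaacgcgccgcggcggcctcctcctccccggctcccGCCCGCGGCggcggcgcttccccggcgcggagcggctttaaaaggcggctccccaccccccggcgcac
Sox21: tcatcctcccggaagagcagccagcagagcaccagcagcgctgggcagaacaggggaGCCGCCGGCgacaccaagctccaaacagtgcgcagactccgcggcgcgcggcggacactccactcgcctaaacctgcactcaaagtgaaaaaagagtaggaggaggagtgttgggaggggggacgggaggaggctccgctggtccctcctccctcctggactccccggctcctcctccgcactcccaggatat
Sox21, a SoxB factor, was at 8.08 and 6.85 CPM in ExE and at 0 to 2.58 CPM in the embryonic libraries (log2 difference 4.44 ± 0.72, edgeR adjusted p = 0.000505).

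Genes of the ectoplacental cone and giant cells were harder to read, since 13 of the 19 listed genes fell below the count minimum. The placental lactogen gene Prl3d1 was tested, with 21 reads in ExE and 53 in the embryonic libraries, and did not pass (edgeR adjusted p = 0.54). The cone marker Tpbpa had at most 3 reads in ExE. Of the 6 tested, 4 were higher. Ascl2, an imprinted transcription factor of trophoblast precursors, was at 17.4 and 26.6 CPM against 1.29 to 2.87 CPM (log2 difference 3.55 ± 0.42, edgeR adjusted p = 3.28e-05). Plac1, an X-linked gene of the placenta, was at 69.4 CPM in ExE replicate 1 and 435 CPM in replicate 2 against 1.5 to 24.6 CPM (5.01 ± 0.62, edgeR adjusted p = 0.000181). These calls held with each library left out, and leaving out ExE replicate 1 brought the list's count from 4 to 2.

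X-linked reproductive homeobox genes of the Rhox cluster formed the list with the highest median. Of 14 listed genes, 5 met the count minimum and all 5 were called higher; their summed level was 1174 and 3276 CPM in ExE and 4.15 to 210 CPM in the embryonic libraries. Rhox5 was at 1130 and 3204 CPM against a lowest value of 4.05, a median of 83.9 and a highest value of 206 CPM, a log2 difference of 5.07 ± 0.55 (edgeR adjusted p = 3.28e-05). Rhox6 was at 33.4 and 56.6 CPM against 0 to 4.9 CPM (5.37 ± 0.49, edgeR adjusted p = 2.87e-06). Rhox9 was at 8.4 and 10.5 CPM, had no reads in A, and reached 0.34 CPM elsewhere. Rhox4b and Rhox4e were at 0.792 to 2.09 CPM in ExE; near-identical copies of these genes lie in the cluster, and the counting may have split their reads. Without either ExE library 3 of the 5 could not be tested, and 2 stayed called.

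Among the genes with the smallest p were some outside the trophoblast list. Fabp3, a fatty acid binding protein, was at 197 and 784 CPM against 2.11 to 17.9 CPM (log2 difference 6.27 ± 0.38, edgeR adjusted p = 4.05e-08). Mageb16, an X-linked gene of the melanoma antigen family, was at 95.9 and 203 CPM in ExE and at 0.5 to 18.6 CPM in the embryonic libraries (4.83 ± 0.29, edgeR adjusted p = 4.05e-08). Pcgf5, a Polycomb group subunit, was at 90.5 and 109 CPM against 4.76 to 18.3 CPM (3.36 ± 0.23, edgeR adjusted p = 1.79e-07). Trap1a, an X-linked gene, was at 199 and 252 CPM against 5.4 to 60.0 CPM (3.32 ± 0.26, edgeR adjusted p = 4.57e-07). Each of these kept its call with every one of the 8 libraries left out in turn.

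Several genes known from pluripotent cells were higher in ExE than in the embryonic regions. Zfp42, a zinc finger marker of naive pluripotency, was at 29.7 and 73.1 CPM against 1.36 to 3.13 CPM (log2 difference 4.68 ± 0.39, edgeR adjusted p = 8.79e-07). Nr0b1, an orphan nuclear receptor, was at 20.7 and 36.1 CPM, at 5.05 and 4.68 CPM in A, at no reads in AM and at 0.343 and 0 CPM in P, a ratio of mean CPM of 16.9. Dppa4, a chromatin-associated developmental pluripotency factor, was at 22.2 and 49.7 CPM and at most 0.34 CPM elsewhere, with no reads in P and a ratio of mean CPM of 283. Tfcp2l1 was at 40.2 and 45.8 CPM against 1.9 to 29.3 CPM (2.37 ± 0.40, edgeR adjusted p = 0.000661). Of 11 tested genes of the naive pluripotency list, 6 were higher and 1, Nanog, was lower (edgeR adjusted p = 0.0156; 0.091 and 0.17 without ExE replicates 1 and 2); Esrrb is among the 6 and is also a trophoblast gene.

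Dnmt3l, the catalytically inactive partner of the de novo DNA methyltransferases, was at 39.9 and 58.5 CPM in ExE and at 0.343 to 3.23 CPM elsewhere. Its log2 difference was 5.01 ± 0.51 (edgeR adjusted p = 1.02e-05), and the call held with each library left out. The enzymes themselves went the other way or did not pass. Dnmt3a was at 58.7 and 43.8 CPM, at 166 and 217 CPM in A, at 55.8 and 55.2 CPM in AM and at 117 and 80.3 CPM in P, so ExE overlapped AM alone (log2 difference -0.99 ± 0.27, edgeR adjusted p = 0.0158; 0.23 without ExE replicate 2). Dnmt3b was at 311 and 348 CPM in ExE against 162 to 2114 CPM (-1.08, edgeR adjusted p = 0.052).

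Imprinted genes did not move together. Of 24 tested, 7 were higher and 3 lower, and without ExE replicate 2 these numbers were 4 and none. Sfmbt2, a paternally expressed Polycomb gene needed in the placenta (chr2:10370440-10595253), was at 111 and 90.4 CPM against 1.5 to 9.78 CPM (log2 difference 4.22 ± 0.26, edgeR adjusted p = 4.05e-08). Igf2, the fetal growth factor, was at 195 and 125 CPM against 12.2 to 65.5 CPM (2.70 ± 0.36, edgeR adjusted p = 8.06e-05). Gab1, an adaptor of receptor tyrosine kinases, was at 71.7 and 67.8 CPM against 11.4 to 40.0 CPM (1.65 ± 0.20, edgeR adjusted p = 4.98e-05). These 3 calls and that of Ascl2 held with each library left out. H19, the noncoding RNA next to Igf2, was at 1949 and 1838 CPM against 35.7 to 819 CPM (2.84 ± 0.76, edgeR adjusted p = 0.0187), but without ExE replicate 1 and without ExE replicate 2 its adjusted p was 0.069 and 0.11. Among the lower genes, Nnat, a membrane proteolipid of neural tissue, was at 7.69 and 2.57 CPM against 47.0 to 94.2 CPM (-3.71 ± 0.71, edgeR adjusted p = 0.00219; 0.061 without ExE replicate 2).

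Primitive blood genes were high in ExE at this stage. Gata1, the master regulator of red cell development (chrX:7959260-7976663), was at 27.4 and 40.3 CPM in ExE, at 11.5 and 8.07 CPM in AM, at 3.35 and 1.87 CPM in A and at 1.2 and 0.914 CPM in P. Its log2 difference to the mean of the regions was 3.48 ± 0.34 (edgeR adjusted p = 6.21e-06). Runx1, required for blood stem cell emergence and active in early blood islands, was at 18.1 and 21.0 CPM against 0.25 to 3.56 CPM (3.68 ± 0.54, edgeR adjusted p = 0.000192). Lmo2, a bridging partner of Tal1 and Gata factors, was at 33.4 and 33.7 CPM against 0.952 to 9.52 CPM (3.56 ± 0.68, edgeR adjusted p = 0.00183). None of these 3 genes overlapped, and all kept their calls with each library left out.

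Gfi1b, a transcriptional repressor that acts in the erythroid and megakaryocyte lineages, was at 7.53 and 14.3 CPM in ExE and at most 0.429 CPM elsewhere. The ratio of mean CPM was 79.8. The embryonic beta-like globin Hbb-bh1 differed between the ExE libraries, with 62.1 CPM in replicate 1 and 7.61 CPM in replicate 2. The embryonic libraries held 4 reads of it, all in P, and the ratio of mean CPM was 539. It was higher by edgeR but not by DESeq2 (DESeq2 adjusted p = 0.12); reads shared with near-identical globin copies could have been split between them. Tal1, a basic helix-loop-helix factor at the root of blood formation, was at 21.8 and 24.8 CPM against 0.515 to 4.17 CPM (log2 difference 3.60 ± 0.83, edgeR adjusted p = 0.0071; 0.076 without ExE replicate 2). Of 12 tested genes of this list, 9 were higher and none lower; 4 were called without ExE replicate 2 and 5 without replicate 1, with 3 of the 9 then untestable. Epor, Alas2 and Myb did not pass (edgeR adjusted p 0.89, 0.54 and 0.61).

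The hexamer AGATAA, a form of the site bound by Gata factors, was searched on both strands in the same promoter window. It was present in 3 of 12 promoters of tested blood genes (25%), in 1 of 9 promoters of called ones (11.1%) and in 5.98% of the promoters of all tested genes. The called gene is Tal1, shown because it is itself a regulator of this program (chr4:115056176-115056425, GRCm38.p6, plus strand). Capitals mark the site, which reads TTATCT on the printed strand and AGATAA on the opposite strand.
Tal1: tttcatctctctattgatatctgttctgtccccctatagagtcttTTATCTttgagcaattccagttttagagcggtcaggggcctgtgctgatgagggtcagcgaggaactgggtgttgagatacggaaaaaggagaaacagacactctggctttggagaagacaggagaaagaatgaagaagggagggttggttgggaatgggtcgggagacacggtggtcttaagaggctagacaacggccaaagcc

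Endothelial genes followed with smaller numbers. Of 11 tested, 5 were higher and none lower. Their summed level was 164 and 163 CPM in ExE and 36.6 to 130 CPM in the embryonic libraries. Sox7, an endothelial SoxF factor, was at 13.5 and 13.4 CPM against 0.272 to 3.42 CPM (log2 difference 3.53 ± 0.63, edgeR adjusted p = 0.00104). Tek, the receptor of angiopoietins, was at 9.43 and 6.94 CPM against 0.172 to 2.53 CPM (3.25 ± 0.63, edgeR adjusted p = 0.00183). These 2 genes are the ones that stayed called with each library left out. The list's count was 2 without ExE replicate 1, ExE replicate 2, A replicate 1 or P replicate 1, and 3 without A replicate 2 or AM replicate 1. Kdr and Etv2, which mark the shared precursor of blood and endothelium, were at 18.5 to 32.9 CPM in ExE and did not pass (edgeR adjusted p 0.52 and 0.27).

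In the list of allantois and extra-embryonic mesoderm 3 of 10 tested genes were higher. Ahnak, a large scaffold protein, was at 51.9 and 77.0 CPM against 2.81 to 25 CPM (log2 difference 3.01 ± 0.43, edgeR adjusted p = 0.000173). Pitx1, a homeobox factor, was at 4.6 and 11.1 CPM against 0.0858 to 1.28 CPM (4.16 ± 0.69, edgeR adjusted p = 0.000661). Hand1, a factor of trophoblast and of extra-embryonic mesoderm, was at 39.7 and 29.4 CPM in ExE and at 1.36 to 40.1 CPM elsewhere, and it did not pass (edgeR adjusted p = 0.32). The summed level of the list was 201 and 221 CPM in ExE against 39.9 to 151 CPM.

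Among Hox genes, which give position along the body axis, the 5 called ones were low in every library. Hoxb7 was at 2.14 and 1.81 CPM in ExE and had no reads in A and P. Hoxb6 was at 2.3 and 2.09 CPM against at most 0.653 CPM. The more abundant Hoxb1 was at 16.8 and 2.76 CPM in ExE, reached 235 CPM in P replicate 1 and did not pass (edgeR adjusted p = 0.34). Of the 11 tested genes, 5 were higher, 3 without A replicate 1, 1 without ExE replicate 1 and none without ExE replicate 2; without either ExE library 4 of the 5 could not be tested.

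**Figure D3:**
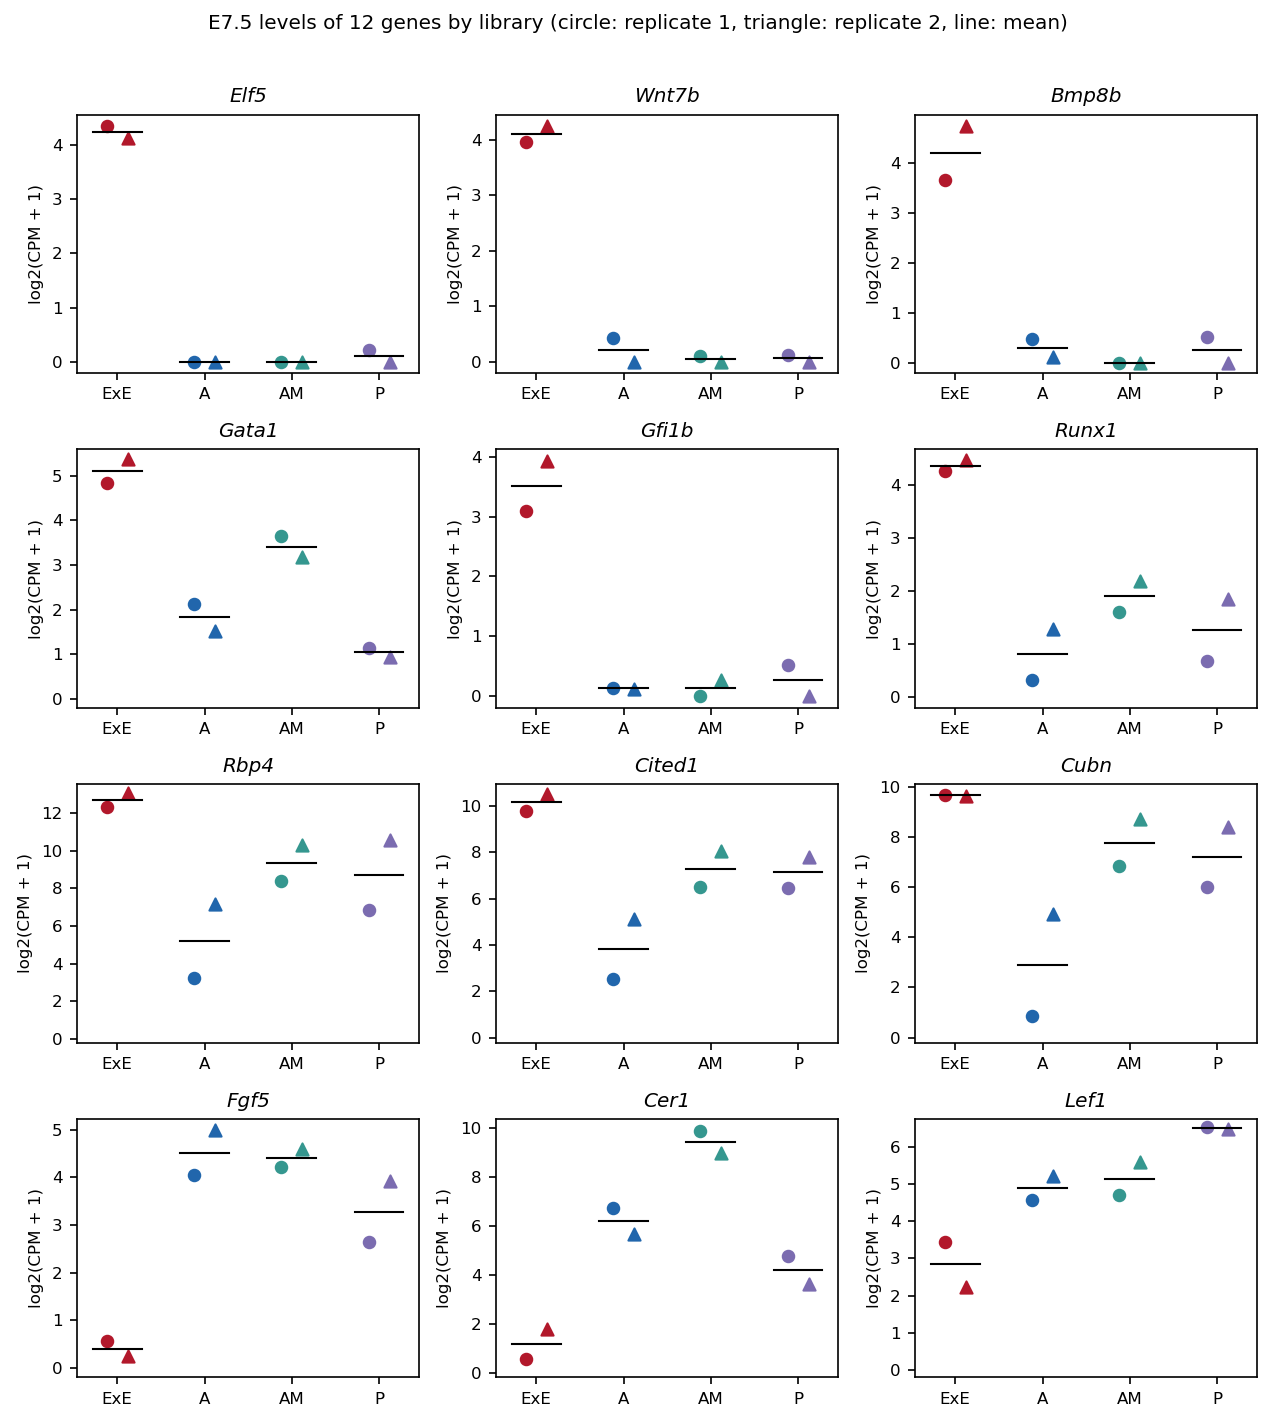
Log2(CPM + 1) of 12 genes in each E7.5 library, by region (ExE, A, AM, P); circles are replicate 1, triangles replicate 2 and lines the mean of the log values. Elf5, Wnt7b, Bmp8b and Gfi1b are near 0 in all embryonic libraries, Rbp4, Cited1 and Cubn step down from ExE over AM and P to A, and Fgf5, Cer1 and Lef1 are lowest in the ExE libraries.

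Genes of the visceral and yolk sac endoderm, which secretes plasma proteins and absorbs nutrients, were abundant in ExE. Its 24 listed genes, all of them tested, summed to 24749 and 31480 CPM in ExE, to 4190 and 15813 CPM in AM, to 1792 and 15257 CPM in P and to 395 and 1449 CPM in A. All 24 had positive differences and 12 were called higher, with a median of 2.39. Rbp4, the retinol carrier, was at 5121 and 8491 CPM against 8.46 to 1529 CPM (log2 difference 4.21 ± 0.86, edgeR adjusted p = 0.00509; 0.062 without ExE replicate 2). Cited1, a transcriptional coactivator of yolk sac endoderm (chrX:102247378-102252181), was at 871 and 1475 CPM against 4.85 to 264 CPM (3.87 ± 0.51, edgeR adjusted p = 0.000147). Fgb, the fibrinogen beta chain, was at 65.6 and 116 CPM against 0 to 48.5 CPM (3.50 ± 0.64, edgeR adjusted p = 0.00218). The calls of Cited1 and Fgb held with each library left out. The motif CAAAGTCCA, searched in the same promoter window, was in 0 of 24 promoters of the list's tested members. It was in 0.336% of the promoters of all tested genes, a share too low for 24 promoters to tell the list from the background.

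The number of calls in this list changed with the libraries and settings used. In A, AM and P the library of replicate 2 held 3.67 (A), 3.77 (AM) and 8.51 (P) times the summed level of replicate 1. The count of 12 became 21 without A replicate 2, 7 without AM replicate 1, 8 without ExE replicate 1 and 4 without ExE replicate 2, and it was 24 without a filter on low counts. Apoa1, the main protein of high density lipoprotein, was at 4851 and 3583 CPM against 1.15 to 2938 CPM, yet it did not pass (2.79, edgeR adjusted p = 0.16). Afp, the fetal albumin-like protein, was at 226 and 158 CPM and within the embryonic range of 0.35 to 448 CPM (edgeR adjusted p = 0.46). Whether differing amounts of visceral endoderm in the dissected regions set these differences was not tested.

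Uptake and digestion of proteins formed a related group. Of 17 lysosomal and endocytic genes, 12 were higher and 1 lower, and their summed level was 9040 and 13379 CPM in ExE against 1169 to 6647 CPM. The visceral endoderm receptors Lrp2 and Cubn and their adaptor Dab2 are in both lists. Lrp2 was at 172 and 191 CPM against 8.84 to 55.9 CPM (log2 difference 2.45 ± 0.49, edgeR adjusted p = 0.00337). Ctsl, a lysosomal cysteine protease, was at 2888 and 3027 CPM against 183 to 1532 CPM (2.38 ± 0.47, edgeR adjusted p = 0.00211). Lgmn, the asparaginyl protease legumain, was at 630 and 1336 CPM against 33.0 to 466 CPM (2.71 ± 0.45, edgeR adjusted p = 0.000661). The calls of these 3 genes held with each library left out, while the list's count fell to 3 without ExE replicate 2. Psap, the precursor of the saposins, was the lower gene (37.2 and 35.1 CPM against 57.7 to 121 CPM; -1.30 ± 0.34, edgeR adjusted p = 0.0123), and its adjusted p was 0.07 and 0.15 without ExE replicates 1 and 2.

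Iron genes were counted as a further list. Ftl1, the ferritin light chain, was at 11481 and 21599 CPM in ExE, the highest mean level among the genes called higher, against 2620 to 11246 CPM (log2 difference 1.73 ± 0.44, edgeR adjusted p = 0.0106; 0.25 without ExE replicate 2). Cpox, an enzyme of haem synthesis, was at 71.8 and 61.5 CPM against 12.4 to 25.9 CPM (1.97 ± 0.23, edgeR adjusted p = 2.79e-05) and kept its call throughout. Of the 16 genes of haem synthesis and iron, 5 were higher and none lower, and 1 was called without ExE replicate 2. Alas2, the erythroid enzyme that starts haem synthesis, was at 3.41 and 1.33 CPM and did not pass (edgeR adjusted p = 0.54).

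**Figure D4:**
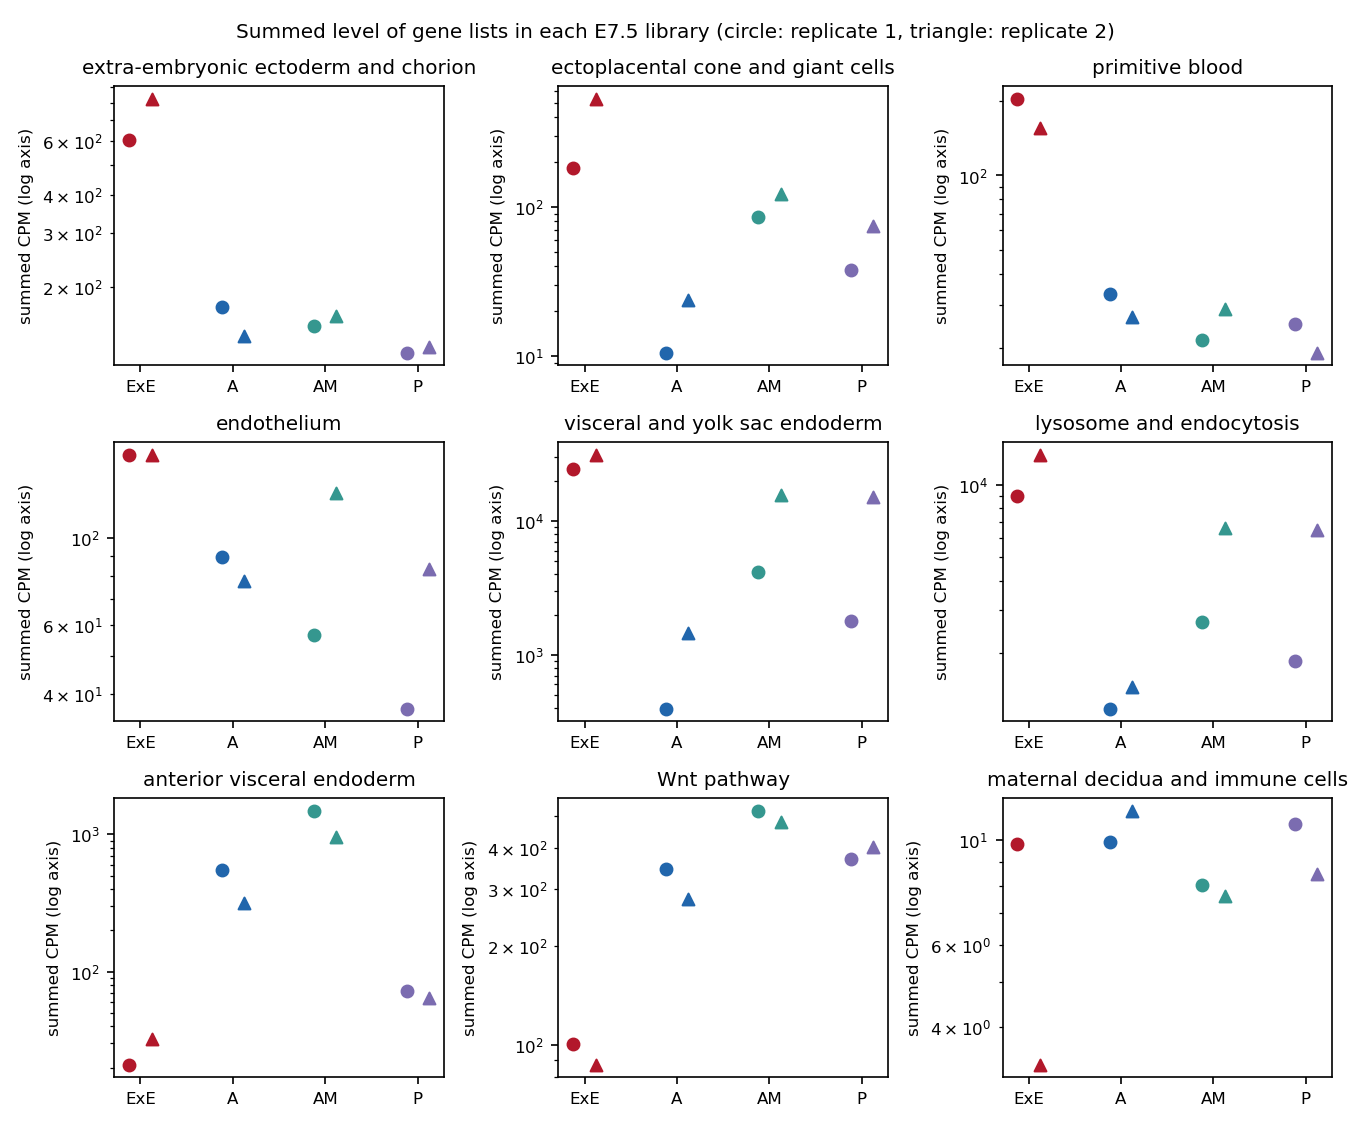
Summed CPM of 9 gene lists in each E7.5 library on log axes, by region (circle: replicate 1, triangle: replicate 2). ExE holds 605 and 824 CPM of extra-embryonic ectoderm genes against 122 to 171 CPM elsewhere, the visceral endoderm list spans 395 CPM in A to 31480 CPM in ExE, and maternal genes stay at or below 11.6 CPM in all libraries.

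Parietal endoderm, which lays down the outer basement membrane of the conceptus, gave a mixed list of 5 higher and 2 lower genes among 11 tested. Pth1r, the receptor of parathyroid hormone related peptide, was at 30.3 and 41.0 CPM in ExE against 4.9 to 21.2 CPM (log2 difference 1.86 ± 0.38, edgeR adjusted p = 0.00265; 0.074 without ExE replicate 2). The collagen IV chain Col4a1 was at 100.1 and 100.2 CPM and overlapped the embryonic range of 20.2 to 108 CPM (1.07 ± 0.27, edgeR adjusted p = 0.00949; 0.092 without ExE replicate 2). Stra6, a retinol transporter, was at 0 and 0.19 CPM in ExE against 2.22 to 16.9 CPM. Without ExE replicate 2 none was higher and 1 lower, and without ExE replicate 1 the higher genes numbered 2.

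Signalling pathways were read by ligands, receptors and targets. In the BMP pathway 7 of 23 genes were higher and 3 lower. Beside the ligands Bmp4 and Bmp8b, the feedback inhibitor Smad7 was higher, at 12.7 and 7.13 CPM against 1.04 to 4.31 CPM (log2 difference 2.15 ± 0.41, edgeR adjusted p = 0.00179). The target Id2, which blocks DNA binding of helix-loop-helix partners, was at 971 and 835 CPM against 51.4 to 138 CPM (3.06 ± 0.35, edgeR adjusted p = 2.51e-05). The other targets Id1 and Id3 did not pass: Id1 was at 188 and 101 CPM against 36.6 to 116 CPM, and Id3 at 325 and 361 CPM against 265 to 583 CPM (edgeR adjusted p 0.14 and 0.66). Chrd, a secreted BMP antagonist of the node, was at 0.871 and 1.05 CPM against 1.85 to 22.2 CPM (-3.13 ± 0.79, edgeR adjusted p = 0.00972; 0.083 and 0.11 without ExE replicates 1 and 2). Id2 and Smad7 kept their calls with each library left out; the list had 3 higher genes without ExE replicate 1, 4 without replicate 2, and no lower genes without either. Its lower genes numbered 1 without AM replicate 1 or P replicate 1.

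In the Wnt pathway 2 of 19 tested genes were higher, the ligands Wnt7b and Wnt6, and 6 were lower, among them the secreted antagonists Dkk1, Sfrp1 and Frzb. Wnt6 was at 9.59 and 7.89 CPM in ExE, at 3.17 and 2.87 CPM in P and at most 0.544 CPM in A and AM (log2 difference 3.68 ± 0.43, edgeR adjusted p = 5.7e-05). Dkk1, an inhibitor of the Wnt co-receptors, was at 7.21 and 8.47 CPM in ExE against 12 to 145 CPM (-2.05 ± 0.39, edgeR adjusted p = 0.00162). Frzb, a secreted Wnt antagonist, was at 3.96 and 6.18 CPM against 11.7 to 125 CPM (-2.96 ± 0.62, edgeR adjusted p = 0.00353). Lef1, a nuclear effector and target, was at 9.9 and 3.71 CPM against 22.9 to 91.3 CPM (-2.73 ± 0.55, edgeR adjusted p = 0.00229; 0.078 without ExE replicate 2). The target Axin2 was at 4.28 and 2.09 CPM within an embryonic range of 1.7 to 9.27 CPM and did not pass (edgeR adjusted p = 0.95). The summed level of the list was 100 and 87.0 CPM in ExE and 280 to 519 CPM in the embryonic libraries; 4 genes were lower without ExE replicate 2, and 1 was higher without either ExE library, since Wnt7b could then not be tested.

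Nodal, the TGF-beta family ligand of mesendoderm and axis formation, had no reads in either ExE library, against 0.951 to 9.27 CPM in the embryonic ones. With 3 reads as the floor over the ExE group, its embryonic level was at least 45.0-fold higher. Cer1, a secreted inhibitor of Nodal, BMP and Wnt, was at 0.475 and 2.47 CPM in ExE, at 944 and 504 CPM in AM, at 103 and 49.8 CPM in A and at 26.3 and 11.2 CPM in P (log2 difference -6.13 ± 1.25, edgeR adjusted p = 0.00558). Of 15 tested genes in the Nodal pathway 1 was higher, the convertase gene Pcsk6, and 3 were lower. The shares over all tested genes were 14.1% higher and 8.43% lower. The signal transducers Smad2, Smad3 and Smad4 did not pass (edgeR adjusted p 0.46, 0.57 and 0.50).

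FGF and Hedgehog genes were read in the same way. Fgf5, a ligand of the primed epiblast, was at 0.475 and 0.19 CPM against 5.23 to 30.6 CPM (log2 difference -5.55 ± 0.995, edgeR adjusted p = 0.00192). The receptor gene Fgfr1 was at 26.5 and 15.7 CPM against 42.4 to 85.9 CPM (-1.36 ± 0.30, edgeR adjusted p = 0.00467; 0.13 without ExE replicate 2), and Fgfr2, the receptor of trophoblast stem cells, was at 41.8 and 23.8 CPM against 10.7 to 46.6 CPM and did not pass (edgeR adjusted p = 0.37). Ihh, the Hedgehog ligand of visceral endoderm, was at 8.0 and 8.18 CPM against 0.2 to 6.23 CPM (2.75 ± 0.61, edgeR adjusted p = 0.00444; 0.054 without ExE replicate 2). The receptor and target Ptch1 was at 1.66 and 1.24 CPM against 3.26 to 8.09 CPM (-1.68 ± 0.55, edgeR adjusted p = 0.0374), and this call was lost with each of the 8 libraries left out in turn. In all, 1 of 16 FGF genes was higher and 2 lower, and 1 of 12 Hedgehog genes was higher and 3 lower. Over all tested genes 14.1% were higher and 8.43% lower. Without ExE replicate 2 the FGF list had 1 lower gene and the Hedgehog list had none in either direction. The higher FGF gene, Fgf15, kept its call in 2 of the 8 cases of a library left out, those without AM replicate 2 and without P replicate 1, while 2 FGF genes were higher without AM replicate 2, and the Hedgehog list had 1 lower gene without A replicate 1, A replicate 2, AM replicate 1, AM replicate 2 or P replicate 1.

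Epiblast and anterior patterning genes were among those lower in ExE. Otx2, a homeobox factor of epiblast, anterior visceral endoderm and forebrain, was at 2.06 and 2.28 CPM in ExE, at 137 and 91.7 CPM in A, at 95.3 and 57.1 CPM in AM and at 4.72 and 3.53 CPM in P (log2 difference -3.93 ± 0.66, edgeR adjusted p = 0.000838). Pou5f1, the pluripotency factor Oct4, was at 16.9 and 5.99 CPM against 21.3 to 469 CPM (-3.86 ± 0.81, edgeR adjusted p = 0.00495; 0.089 without ExE replicate 2). Of 14 tested epiblast genes 6 were lower and 3 higher, among the latter Utf1 and Pou3f1, whose ExE levels overlapped those of A. The summed level of the list was 409 and 504 CPM in ExE, within the embryonic range of 325 to 3203 CPM. Without ExE replicate 2 the list had 3 lower and no higher genes. In the anterior visceral endoderm list 5 of 8 tested genes were lower and none higher, and its summed level was 21.0 and 32.2 CPM in ExE against 64.8 to 1485 CPM. The 5 genes, Cer1, Otx2, Dkk1, Sfrp1 and Lhx1, all belong to other lists counted here as well, so these lists are not independent.

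Other lineage genes of the gastrulating embryo were read as lists, beside 14.1% higher and 8.43% lower over all tested genes. Of 13 tested genes of definitive endoderm and axial mesoderm 5 were lower and 1 higher, but 1 was lower without ExE replicate 1, and 1 lower and none higher without replicate 2. Noto, a homeobox gene of the node, was at 0.0792 and 0 CPM in ExE against 2.09 to 109 CPM. Of 18 tested genes of the primitive streak and nascent mesoderm 1 was higher and 2 lower, with none in either direction without ExE replicate 2 and 1 lower without A replicate 2 or AM replicate 2; without AM replicate 2, 2 were higher. Brachyury, T, was at 29.9 and 16.2 CPM in ExE and between 3.85 and 442 CPM elsewhere, and it did not pass (edgeR adjusted p = 0.12). Of 15 tested neural and surface ectoderm genes 3 were lower, Otx2, Cdh2 and Sox11, and 1 without ExE replicate 2.

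Falls that held with each library left out were also found outside these lists. Tubb4a, a beta tubulin (chr17:57080061-57087600), was at 0.871 and 0.571 CPM in ExE against 19.09 to 102 CPM (log2 difference -5.91 ± 0.70, edgeR adjusted p = 3.72e-05). Sms, spermine synthase, was at 51.8 and 34.1 CPM against 172 to 255 CPM (-2.31 ± 0.25, edgeR adjusted p = 1.45e-05). Tgif1, a homeobox corepressor of Smad2 signalling and of retinoid receptors, was at 38.6 and 30.8 CPM against 118 to 194 CPM (-2.28 ± 0.29, edgeR adjusted p = 5.95e-05). Gja1, the gap junction protein connexin 43, was at 174 and 105 CPM against 343 to 627 CPM (-1.78 ± 0.32, edgeR adjusted p = 0.00102). These 4 genes kept their calls with each library left out, and none overlapped.

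General cell functions were read last, beside 14.1% higher and 8.43% lower over all tested genes. Of 21 cell cycle genes 5 were lower and 2 higher, with 3 lower without ExE replicate 1 and none in either direction without ExE replicate 2. The replication helicase subunits Mcm3, Mcm4, Mcm6 and Mcm7 were among the lower genes: Mcm3 was at 204 and 171 CPM against 281 to 483 CPM (log2 difference -1.05 ± 0.25, edgeR adjusted p = 0.00787; 0.13 without ExE replicate 2). Mki67, a marker of dividing cells, was at 207 and 194 CPM within 128 to 217 CPM and did not pass (edgeR adjusted p = 0.50). Of 17 tested glycolysis genes 3 were lower and 1 higher, and none in either direction without either ExE library; the list summed to 23121 and 21336 CPM in ExE, and to 15644 to 74861 CPM elsewhere with the top value in P replicate 2.

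Each embryonic region was also compared with ExE on its own; these 3 comparisons share the ExE libraries. Against A, 1546 genes were higher (11.2%) and 1068 lower (7.73%). Against AM, 815 were higher (5.90%) and 569 lower (4.12%). Against P, 734 were higher (5.31%) and 560 lower (4.05%). The genes called in either direction were 2614 (18.9%), 1384 (10.0%) and 1294 (9.37%). Without ExE replicate 2 they fell to 929, 87 and 127; without replicate 1 of the embryonic region concerned they fell to 1144, 138 and 213, and without its replicate 2 to 1170, 616 and 827.

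Some members were set apart from every region and others from part of them. Wnt7b was higher than A, AM and P by log2 differences of 6.23 ± 0.73, 8.5 ± 0.90 and 8.04 ± 0.92 (edgeR adjusted p 9.33e-05, 0.000105 and 0.000171). Gata1 was nearest in AM, with log2 differences of 3.68 ± 0.50 to A, 1.79 ± 0.46 to AM and 4.97 ± 0.55 to P (edgeR adjusted p 0.000219, 0.0226 and 0.00015). For the visceral and yolk sac endoderm list the median difference was 4.78 to A, 0.91 to AM and 1.45 to P. Rbp4 passed against A alone, by 6.49 ± 1.46, and its differences to AM and P were 3.09 ± 1.24 and 3.05 ± 1.24 (edgeR adjusted p 0.0104, 0.133 and 0.145). Otx2 was lower than A by -5.72 ± 0.75 and than AM by -5.13 ± 0.73, while its difference to P was -0.93 ± 0.69 (edgeR adjusted p 0.000238, 0.00145 and 0.424). Dkk1 was lower than AM by -4.12 ± 0.47 and than P by -1.41 ± 0.43, with -0.62 ± 0.42 to A (edgeR adjusted p 0.000135, 0.0486 and 0.327). The differences between regions in these values were not tested.

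The E7.5 difference was then set against that of earlier stages. At E7.0, 1426 genes were higher (10.3%) and 1159 lower (8.39%) in ExE than in the mean of A and P, and at E6.5, 574 were higher (4.15%) and 747 lower (5.41%) than in Epi. The genes called in either direction made up 18.7% at E7.0 and 9.56% at E6.5. The extra-embryonic ectoderm and chorion list had medians of 4.56 at E6.5, 3.95 at E7.0 and 2.86 at E7.5. The primitive blood list had -0.05, -0.26 and 3.54, and visceral and yolk sac endoderm had 0.95, 1.47 and 2.39. The embryonic groups differ between stages, so the order of the medians is a description. Members had to meet the count minimum at E7.5 only, so genes hardly read at E6.5 or E7.0 enter these medians. A rise toward E7.5 can thus be partly set by the rule.

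Tested directly, the ExE minus embryonic difference changed between E7.0 and E7.5 in 1 gene (0.00724%) by edgeR, with 1426 genes at an unadjusted p under 0.05 and 120 called by DESeq2. Replicates 1 and 2 of E7.0 ExE had 17138732 and 5145033 reads, the most and the fewest of the 18 libraries. Their log2 CPM correlated at 0.890, the lowest value of the 9 groups. Leaving out E7.0 ExE replicate 1 gave 1080 genes, and leaving out any of E7.0 ExE replicate 2, A replicate 1, P replicate 1 and P replicate 2, or of E7.5 A replicate 2, ExE replicate 1 and ExE replicate 2, gave none. Between E6.5 and E7.5 it changed in 27 genes (0.195%), upward in 23 (0.166%) and downward in 4 (0.0290%), with 1397 at an unadjusted p under 0.05. That count was 0 without E6.5 ExE replicate 1, 1 without E6.5 ExE replicate 2, 9 without Epi replicate 1 and 4 without Epi replicate 2.

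Upward changes included embryonic genes that were low in ExE at E6.5 and higher there at E7.5. Ccnd1, the D-type cyclin, was at 3.92 and 3.29 CPM in ExE and 131 and 148 CPM in Epi at E6.5, and at 52.2 and 28.3 CPM in ExE against 82.8 to 169 CPM at E7.5. Igfbp2, a binding protein of insulin-like growth factors, was at 5.92 and 7.02 CPM in ExE against 320 and 420 CPM at E6.5, and at 29.3 and 16.1 CPM against 82.4 to 236 CPM at E7.5. Armcx2, an X-linked armadillo repeat gene, was at 1.09 and 0.573 CPM against 38.0 and 31.3 CPM at E6.5, and at 30.2 and 14.2 CPM against 44.8 to 74.6 CPM at E7.5. In each of these genes ExE lay below all embryonic libraries of its stage, and the gap was smaller at E7.5.

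**Figure D5:**
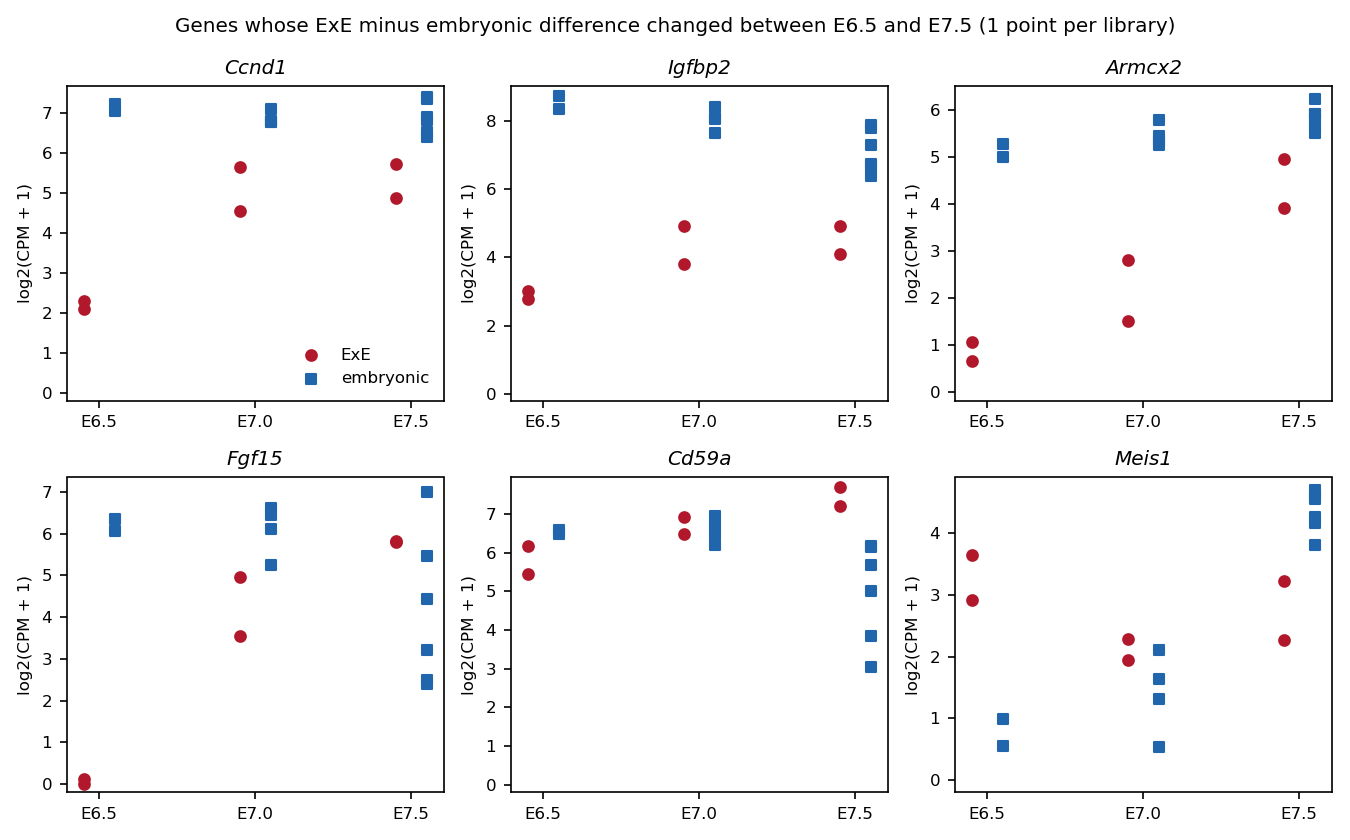
Log2(CPM + 1) of 6 genes in all 18 embryo libraries at E6.5, E7.0 and E7.5; red points are ExE libraries and blue squares embryonic ones (Epi at E6.5, A and P at E7.0, A, AM and P at E7.5). Ccnd1, Igfbp2 and Armcx2 climb in ExE from 7.02 CPM or less at E6.5, Fgf15 climbs from 0.0911 and 0 CPM to 54.5 and 55.3 CPM, Cd59a ends above all embryonic libraries at E7.5 with 146 and 208 CPM, and Meis1 climbs in the embryonic libraries.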

How the data were processed

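PolyA RNA of ICR embryos was measured in 18 embryo libraries, of which the 8 at E7.5 form the comparison. The counts per gene are those the authors deposited in a table of the whole series. Per the labels' protocols, RNA was extracted with GuSCN, precipitated with ethanol and an RNA carrier, and made into libraries with the Nextera XT kit, without molecular identifiers being named. Per the submitters' processing notes, CASAVA 1.8, TopHat2 2.0.9, BWA and build mm10 were used; no source used here names the counting tool, the gene annotation or a strand setting, so antisense and overlapping genes cannot be told apart.

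Groups follow the sample titles. Genes with at least 10 counts in 2 of the 8 libraries were fitted in edgeR 4.0.16 (R 4.3.3, limma 3.58.1; TMM, robust quasi-likelihood) over all 18 libraries and 9 groups, so that all groups share the estimate of the spread, and p-values were Benjamini-Hochberg adjusted over all 13816 genes at 0.05. SE is the log2 difference divided by the square root of F. DESeq2 1.42.0, other scalings, filters, the replicate block, the E7.5 libraries alone and leaving out each library were alternatives; their use for the single regions and for counts within lists was chosen after seeing the data. On simulated counts, 13.4%, 71.6% and 87.9% of genes changed 2-, 4- and 8-fold were recovered. Of 13238 genes tested there, 7 unchanged ones were called. Only 67, 67 and 66 genes, drawn from those with more reads, were changed, and all other genes had 1 mean in all groups. Simulated libraries varied independently. The real comparison has many more changed genes and shared deviations of same-numbered libraries, so these shares do not give its accuracy. Members, lists and the rule for named genes (list anchors, the smallest p and largest changes, the highest levels, and the largest stage differences) were chosen with earlier results of these data known. Promoters and positions come from RefSeq tables of GRCm38.p6; promoters matched 10496 of the tested genes. Total counts per E7.5 library were 9366714 to 16297084. Some genes that meet the rule are not reported here.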

Additional observations from a re-analysis of the deposited data

Results flagged for a closer look

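The ExE minus embryonic log2 difference changed between an earlier stage and E7.5 in 10 of the named genes and in Chac1, by edgeR's test of the difference itself with Benjamini-Hochberg adjusted p under 0.05. These calls rest on 2 libraries a group, and all those from E6.5 were lost when either E6.5 ExE library was left out. Without Epi replicate 2, Ccnd1 and Fgf15 were the only flagged genes still called.

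Upward from E6.5 to E7.5 moved Sox11 by 4.16, Armcx2 by 3.95, Ccnd1 by 3.69, Rragd by 3.38, Igfbp2 by 3.22 and Efna5 by 2.88. All 6 genes were lower in ExE than in the embryonic libraries at E7.5, and their difference at E6.5 was larger. Sox11, a neural SoxC factor, was at 1.18 and 1.0 CPM in ExE and 51.2 and 62.6 CPM in Epi at E6.5, and at 41.6 and 13.3 CPM in ExE at E7.5. Rragd, a GTPase of nutrient signalling, was at 2.46 and 2.43 CPM in ExE against 87.8 and 87.4 CPM in Epi at E6.5.

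Cd59a, an inhibitor of complement, moved by 3.21: ExE was at 70.4 and 42.5 CPM below Epi (94.1 and 87.8 CPM) at E6.5 and at 146 and 208 CPM above all embryonic libraries at E7.5. Mageb16 moved by 2.44 and was higher in ExE at both stages. Fgf15, a secreted FGF, moved by a fitted 11.65, but ExE held 1 read of it at E6.5, so that value depends on the prior count; ExE was at 54.5 and 55.3 CPM at E7.5.

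Downward moved Meis1 by -5.30. Meis1, a homeobox cofactor, was at 11.5 and 6.59 CPM in ExE against 0.458 and 0.988 CPM in Epi at E6.5, and at 8.32 and 3.80 CPM against 13.1 to 24.9 CPM at E7.5.

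From E7.0 to E7.5, Chac1, an enzyme of glutathione breakdown, moved by a fitted 8.01. The E7.0 ExE libraries held 1 read of it, against 12.9 to 24.4 CPM in A and P of that stage, while at E7.5 all libraries were at or below 3.45 CPM. It was not called at E7.5 itself, lies outside the rule for named genes and was chosen after its value was seen, as the 1 gene called for this stage pair.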

How the results depend on the processing

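Of 183 named calls, 65 held with each of the 8 E7.5 libraries left out, while 113 were lost without ExE replicate 2 and 65 without ExE replicate 1, 17 of them in each case because the gene fell below the count minimum. Over all libraries left out in turn, genes higher in ExE numbered 549 to 1806 and genes lower 151 to 1248; genes called against A numbered 929 to 2617, against AM 87 to 1427 and against P 127 to 1274. The stage difference from E7.0 was called in 0 to 1080 genes and that from E6.5 in 0 to 32. DESeq2 called 1821 genes lower, 2247 against AM, 2093 against P, 120 for the difference from E7.0 and 173 for that from E6.5. Scaling by total counts gave 981 genes higher, 838 against P and 9 for the difference from E6.5. Without a filter on low counts the stage differences were called in 275 and 263 genes. With the replicate block, genes called against AM were 2243, against P 2028, and for the stage differences 26 and 95; the main comparison had 2370 higher and 1504 lower genes. The block raised the visceral and yolk sac endoderm list from 12 to 23 higher genes of 24, with Apoa1 (edgeR adjusted p = 0.0093) and Afp (0.047) then called. Same-numbered libraries deviated together with correlations of 0.087 (ExE and A) to 0.588 (AM and P). The main fit held no replicate block, so this shared part stayed in its spread. The cause of these shifts was not tested, except that leaving out a library leaves fewer samples. Depth limits genes with few reads: 9338 genes fell below the count minimum.

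No named gene called at E7.5, in the comparison as reported or under an alternative, changed direction, but genes that did not pass the test did. Scaled by total counts, the log2 differences turned to Cdx2 -0.11, Gata3 -0.10, Foxa2 -0.18, Hoxa2 -0.078, Bmp7 -0.18, Mki67 -0.095 and Hk1 -0.17. With single libraries left out, the ranges that cross 0 were Cdx2 -0.87 to 0.89, Gata3 -0.24 to 0.52, Prl3d1 -0.035 to 2.09, Krt7 -0.56 to 1.10, Epor -1.18 to 0.46, Myb -1.08 to 1.28 and Lama1 -0.46 to 0.28. Further such ranges were Lamc1 -0.0072 to 0.66, Pgr -3.64 to 0.20, Prdm1 -3.03 to 0.87, Klf4 -0.17 to 1.32, Mixl1 -2.34 to 0.75, Sox17 -0.52 to 0.60 and Foxa2 -0.030 to 0.51. The others were Hoxa2 -1.53 to 1.54, Bmp7 -0.0096 to 0.17, Plagl1 -1.10 to 0.081, Tfrc -0.74 to 0.18 and Hk1 -0.022 to 0.30.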
